A study of Mus musculus with 7 samples.

Results

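Transcript levels of 4 adenylate kinases (Ak1, Ak3, Ak4, Ak5) and 5 subunits of the AMP-activated protein kinase (Prkaa1, Prkaa2, Prkab1, Prkab2, Prkag1) were examined in the cerebral cortex of mice lacking the creatine (Cr) transporter. The genes were chosen by name as parts of the machinery that handles and senses AMP, and they are 9 of the 24346 genes in the expression table. All 9 had a mean of at least 1 FPKM (a fragment count that the authors divided by transcript length and by the mapped reads of the library) and entered the test with 12988 genes in all.

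Cortical RNA came from 4 CrT-/y males, hemizygous for a deletion of exons 5 to 7 of Slc6a8 and labelled replicates 0 to 3, and from 3 wild-type CrT+/y littermates, labelled replicates 1 to 3. All were 100 days old, on a C57BL/6J background, and gave 1 library each. The deletion is present in all cells of the animal, so no cell type is singled out by the model. The numbers of reads per animal are not part of the FPKM table and were not used here. Means are given ± SD throughout (n = 4 for CrT-/y, n = 3 for CrT+/y).

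Adenylate kinases convert ADP into ATP and AMP, and back again. In doing so they work beside creatine kinase, which regenerates ATP from phosphocreatine, and their product AMP rises steeply when ATP is drawn down. AMPK is a heterotrimer of a catalytic alpha, a scaffolding beta and a nucleotide-binding gamma subunit that is activated when AMP or ADP binds and an upstream kinase phosphorylates alpha, and it then favours ATP-producing over ATP-consuming reactions.

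Several facts of the libraries bear on all values below. Slc6a8, the targeted gene, stood at 12.4, 14.9, 14.7 and 15.7 FPKM in CrT-/y and at 32.3, 29.6 and 28.0 FPKM in CrT+/y animals, without overlap, so the genotype labels held in all 7. FPKM are given per gene, and reads by exon were not measured here. All 10 cortical excitatory neuron markers passed the filter, with summed levels of 1595 to 1729 FPKM in CrT-/y and 1612 to 1960 FPKM in CrT+/y animals. Summed endothelial markers did not overlap between genotypes (159.9 to 176.8 against 177.3 to 194.6 FPKM, 3 of 10 markers lower), nor did those of olfactory bulb (36.9 to 50.8 against 25.5 to 32.1 FPKM, 1 of 6 tested markers higher). Striatal markers summed to 243.8 to 558.0 FPKM in CrT-/y and 134.9 to 514.5 FPKM in CrT+/y animals, with 0 of 10 past the test. Below 0 on the log2 scale (CrT-/y minus CrT+/y) were 0 of 6 olfactory bulb and 0 of 10 striatal markers, against 58.2% of all tested genes. Their medians were 0.76 and 0.69. Oligodendrocyte markers summed to 939 to 1466 FPKM in CrT-/y and 1332 to 1753 FPKM in CrT+/y animals, with 10 of 10 below 0 on the log2 scale and 1 of them past the test. Choroid plexus and ependymal markers reached 412 FPKM in CrT+/y replicate 2 against 12.2 to 61.8 FPKM in the other 6 animals. Their part in the results on AMPK and adenylate kinase genes was not tested. In RNA of whole tissue, fewer cells of a type and less RNA per cell cannot be told apart.

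The alpha and beta subunits of AMPK come in pairs of isoforms whose ratios did not overlap between genotypes (given after the single subunits). The stretches before the RefSeq starts of these 4 genes are therefore shown first. Each is the 250 bases before the RefSeq gene start in GRCm38.p6, written 5′ to 3′ on the gene's strand, with matches to GGGCGG (GC box), CCGGAAG (ETS) and TGCGCA (NRF1 core) on either strand in capitals. They lie at chr15:5143611-5143860 (plus strand, Prkaa1), chr4:105109899-105110148 (minus, Prkaa2), chr5:116024429-116024678 (minus, Prkab1) and chr3:97657962-97658211 (plus, Prkab2).
Prkaa1: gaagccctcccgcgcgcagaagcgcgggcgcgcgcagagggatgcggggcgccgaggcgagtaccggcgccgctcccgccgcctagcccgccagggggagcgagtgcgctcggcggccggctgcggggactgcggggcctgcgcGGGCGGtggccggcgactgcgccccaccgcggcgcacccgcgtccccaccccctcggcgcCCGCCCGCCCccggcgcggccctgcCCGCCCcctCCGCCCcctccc
Prkaa2: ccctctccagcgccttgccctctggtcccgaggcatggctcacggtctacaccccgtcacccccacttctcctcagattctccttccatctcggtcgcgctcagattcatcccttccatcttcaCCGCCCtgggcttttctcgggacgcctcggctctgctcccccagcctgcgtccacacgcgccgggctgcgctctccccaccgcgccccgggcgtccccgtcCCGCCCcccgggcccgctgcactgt
Prkab1: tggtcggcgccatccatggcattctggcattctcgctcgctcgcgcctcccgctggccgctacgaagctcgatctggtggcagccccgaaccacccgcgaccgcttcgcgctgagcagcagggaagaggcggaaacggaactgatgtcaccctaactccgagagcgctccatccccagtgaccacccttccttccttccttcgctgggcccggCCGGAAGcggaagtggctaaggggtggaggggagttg
Prkab2: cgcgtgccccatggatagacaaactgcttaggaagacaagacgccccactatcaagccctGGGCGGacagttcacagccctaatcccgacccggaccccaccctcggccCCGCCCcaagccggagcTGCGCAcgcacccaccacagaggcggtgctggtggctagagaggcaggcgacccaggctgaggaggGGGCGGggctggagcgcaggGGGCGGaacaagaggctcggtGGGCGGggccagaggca
The window of Prkaa1 was the richest in G and C of the 4, at 85.2%, and held 45 CpG. Prkaa2 had 70.0% and 24 CpG, Prkab1 65.6% and 24 CpG, and Prkab2 69.2% and 18 CpG, against medians of 52.4% and 6 CpG over 32851 windows of the same length. GGGCGG matched 5 times in Prkaa1, with 2 of these overlapping each other, 2 times in Prkaa2, 5 times in Prkab2 and not in Prkab1, and 32.7% of all windows held it. CCGGAAG was in Prkab1 only of the 4 (6.91% of all windows) and TGCGCA in Prkab2 only (6.43%). These matches describe letters, and the motifs were chosen after the sequences had been read. RefSeq windows were matched for 8 of the 9 genes, all but Ak5. RefSeq and GENCODE starts can differ, and the windows of Prkab1 and Prkab2 reach into the GENCODE gene positions given below.

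None of the 9 genes passed the test between genotypes. With limma on log2(FPKM + 0.1) and Benjamini-Hochberg adjustment over 12988 genes, 0 of 9 were higher and 0 lower in CrT-/y cortex at an adjusted p under 0.1, whereas 10.1% of all tested genes were called, 2.9% as higher and 7.25% as lower. At an unadjusted p under 0.05 the number was 1 of 9 (Prkab2), against 25% of all genes. The log2 fold changes (CrT-/y minus CrT+/y) were below 0 for 6 genes (58.2% of all genes were) and above 0 for 3, with a median of -0.057 against -0.034 for all genes. In absolute size their median was 0.11, against 0.12 for all genes, and the largest, 0.21 for Prkab1, was exceeded by 25.3% of tested genes. Standard errors of the 9 ran from 0.059 to 0.11, near the median of 0.087 over all genes. At these errors a log2 change would have had to reach 0.19 to 0.35, depending on the gene, to be called.

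**Figure D1:**
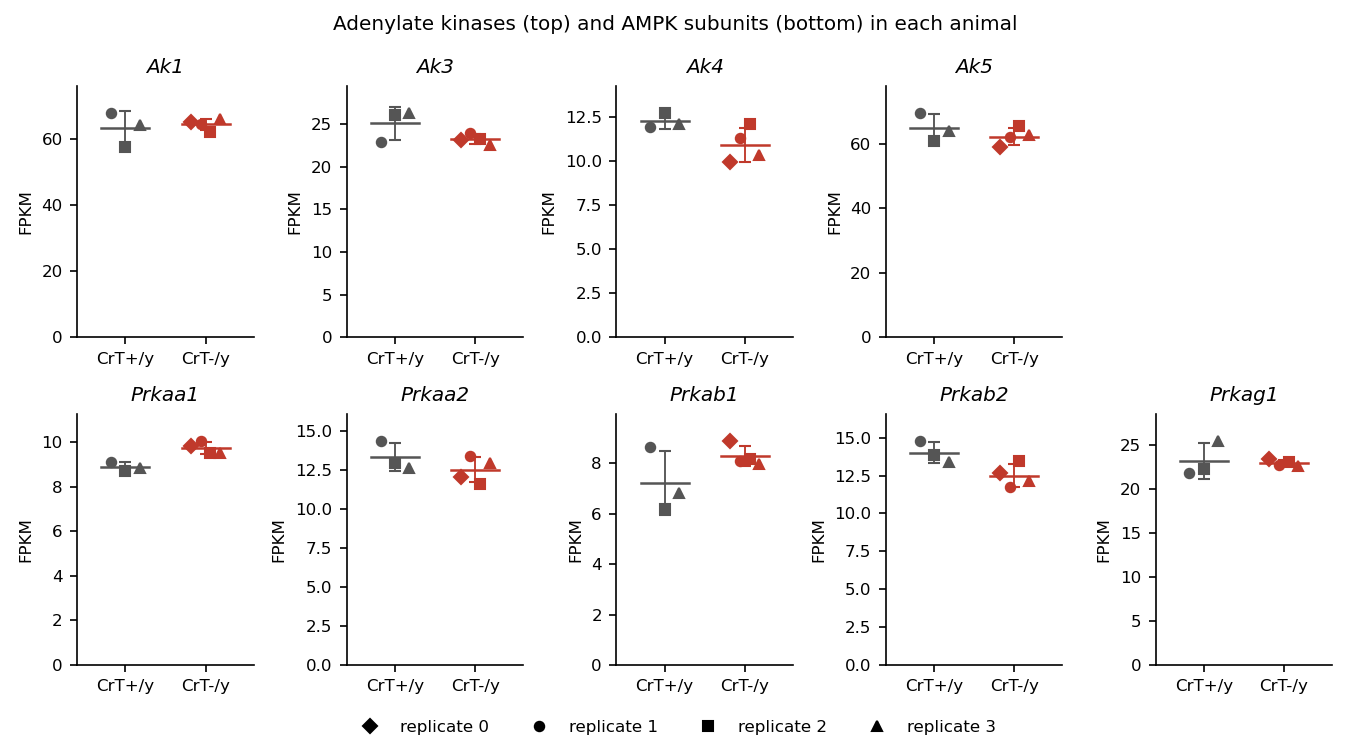
FPKM (vertical axes, from 0) of the 4 adenylate kinases and 5 AMPK subunits in each of 3 CrT+/y (grey) and 4 CrT-/y (red) animals, with lines at the mean, bars of 1 SD and symbols for the replicate number. Only for Prkaa1 do the groups not overlap, at 9.50 to 10.1 against 8.70 to 9.11 FPKM.

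The levels of the 9 genes spanned nearly an order of magnitude and stood between the percentiles 38.6 and 90.4 of all tested genes. In CrT+/y cortex Ak5 (64.9 FPKM) and Ak1 (63.3 FPKM) were the most abundant, and their ranges over animals overlapped. Ak3 (25.1 FPKM) and Prkag1 (23.2 FPKM) followed, again with overlapping ranges. Next came Prkab2 (14.0 FPKM), Prkaa2 (13.4 FPKM) and Ak4 (12.3 FPKM), where each neighbour overlapped the next. Prkaa1 (8.88 FPKM) and Prkab1 (7.22 FPKM) were the lowest, and their ranges in CrT+/y animals stood apart.

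Ak1 encodes the main cytosolic adenylate kinase. It lies on chromosome 2 (GRCm38, 32621758 to 32635058, plus strand). Its level was 65.2, 64.5, 62.2 and 66.2 FPKM in CrT-/y replicates 0 to 3 and 67.9, 57.6 and 64.3 FPKM in CrT+/y replicates 1 to 3. The CrT+/y animals included both the highest and the lowest value, and the CrT-/y animals lay between them. Means were 64.5 ± 1.69 and 63.3 ± 5.26 FPKM. The log2 fold change was 0.03 (SE 0.064, adjusted p = 0.79, limma), with a 95% interval of -7.48% to 12.9%, and its sign turned without CrT+/y replicate 2 (-0.035).

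Ak5, an adenylate kinase found mainly in brain, was the other abundant cytosolic form (chromosome 3, 152462815 to 152668360, minus strand). CrT-/y animals had 59.0, 62.0, 65.6 and 62.6 FPKM, and CrT+/y animals 69.6, 61.0 and 64.0 FPKM, so that the groups overlapped over most of their range. The log2 fold change was -0.057 (SE 0.062, adjusted p = 0.60, limma), with a 95% interval of -12.8% to 5.87%. Under quantile normalization and upper quartile scaling its sign was positive, at 0.015 and 0.0048. The ratio of Ak1 to Ak5 within an animal was 1.04 ± 0.066 in CrT-/y and 0.975 ± 0.030 in CrT+/y cortex, with overlapping values (exact permutation test, p = 0.171). The cytosolic forms were thus present at about equal transcript levels per length in each genotype.

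Ak3 and Ak4 encode the adenylate kinases of the mitochondrial matrix, of which Ak3 uses GTP to phosphorylate AMP. Ak3 (chromosome 19, 29020833 to 29047961, minus strand) stood at 23.2, 24.0, 23.3 and 22.5 FPKM in CrT-/y and 22.9, 26.1 and 26.3 FPKM in CrT+/y animals. The CrT-/y values lay close together, and CrT+/y replicate 1 fell among them while the other CrT+/y animals were higher. Means were 23.2 ± 0.577 and 25.1 ± 1.91 FPKM, a log2 fold change of -0.11 (SE 0.063, adjusted p = 0.318, limma), which was -0.17 without CrT+/y replicate 1 and -0.045 under upper quartile scaling. Of its exon length, 13.8% lies opposite exons of Cdc37l1 and 9.07% opposite those of the antisense gene 1700018L02Rik. Whether fragments were counted by strand is not given in the sources used here, so reads of these genes may not be told apart.

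Ak4 (chromosome 4, 101419277 to 101466995, plus strand) had 9.94, 11.3, 12.1 and 10.4 FPKM in CrT-/y and 11.9, 12.8 and 12.1 FPKM in CrT+/y animals. CrT-/y replicate 2 lay within the range of CrT+/y, and the other 3 CrT-/y animals lay under it. The means of 10.9 ± 0.979 and 12.3 ± 0.429 FPKM gave a log2 fold change of -0.17 (SE 0.078, adjusted p = 0.216, limma), with a 95% interval of -21.2% to 0.552%, and -0.11 under upper quartile scaling. The pseudogene Ak3l2-ps shares 8.42% of the 100-base stretches of the Ak4 transcript, and how such reads were assigned is not known, so the level of Ak4 is uncertain. The ratio of Ak4 to Ak3 was 0.471 ± 0.038 in CrT-/y and 0.491 ± 0.030 in CrT+/y animals and did not pass the exact permutation test (p = 0.40).

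The catalytic subunits of AMPK, alpha1 (Prkaa1) and alpha2 (Prkaa2), had log2 fold changes of opposite sign. Prkaa1 (chromosome 15, 5143861 to 5181899, plus strand) was at 9.85, 10.1, 9.51 and 9.50 FPKM in CrT-/y and at 9.11, 8.70 and 8.83 FPKM in CrT+/y animals. Each CrT-/y animal was above each CrT+/y animal, which held for 1 of the 9 genes, while 21.6% of all tested genes had groups that did not overlap and 6.57% had them higher in CrT-/y. The CrT-/y mean was 109.6% of the CrT+/y mean (9.73 ± 0.279 against 8.88 ± 0.21 FPKM). The difference, a log2 fold change of 0.13 (SE 0.059), gave p = 0.0286 in the exact permutation test, the smallest that 35 splits of the animals allow, and missed the threshold over all genes with an adjusted p of 0.206 (limma). It passed that threshold in 1 setting, upper quartile scaling, with a log2 fold change of 0.19 and an adjusted p of 0.0976 (limma).

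Prkaa2 (chromosome 4, 105029874 to 105109890, minus strand), the more abundant alpha isoform in this tissue, was at 12.1, 13.4, 11.6 and 13.0 FPKM in CrT-/y and 14.4, 13.0 and 12.7 FPKM in CrT+/y animals. The groups overlapped, with the highest value in CrT+/y replicate 1. Its log2 fold change was -0.09 (SE 0.074, adjusted p = 0.479, limma), with a 95% interval of -16.3% to 5.41%, and it was -0.022 after each animal was corrected for transcript length and -0.035 without CrT+/y replicate 1. The sum of both alpha transcripts was 22.3 ± 0.989 FPKM in CrT-/y and 22.2 ± 1.11 FPKM in CrT+/y animals, 21.2 to 23.5 against 21.5 to 23.5 FPKM.

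The beta subunits, which hold the complex together and bind glycogen, had log2 fold changes of opposite sign as well, with Prkab1 the highest of the 9 and Prkab2 the lowest but for Ak4. Prkab1 (beta1, chromosome 5, 116013586 to 116024508, minus strand) was at 8.90, 8.10, 8.18 and 7.98 FPKM in CrT-/y and 8.65, 6.18 and 6.82 FPKM in CrT+/y animals. CrT+/y replicate 1 lay within the CrT-/y range and the other CrT+/y animals below it. Means were 8.29 ± 0.415 and 7.22 ± 1.28 FPKM, and the CrT+/y spread, at 17.8% of the mean, was the widest of any of the 9 genes in either group. The log2 fold change was 0.21 (SE 0.11, adjusted p = 0.257, limma), with a 95% interval of -2.38% to 37.1%. It moved to 0.35 (adjusted p = 0.106, limma) without CrT+/y replicate 1 and to 0.11 (adjusted p = 0.573, limma) without CrT+/y replicate 2.

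Prkab2 (beta2, chromosome 3, 97658193 to 97673812, plus strand) was at 12.6, 11.7, 13.5 and 12.1 FPKM in CrT-/y and 14.8, 13.8 and 13.4 FPKM in CrT+/y animals. The groups met only at CrT-/y replicate 2, which lay above CrT+/y replicate 3. Means of 12.5 ± 0.767 and 14.0 ± 0.716 FPKM gave a log2 fold change of -0.17 (SE 0.068), an unadjusted p of 0.0382 and an adjusted p of 0.178 (limma). Without CrT+/y replicate 3 the adjusted p was 0.0933 (limma), under the threshold, and after the length correction the log2 fold change was -0.11 (adjusted p = 0.336, limma). Summed beta transcripts were 20.8 ± 0.966 FPKM in CrT-/y and 21.2 ± 1.93 FPKM in CrT+/y animals.

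Prkag1 encodes gamma1, a subunit that binds AMP, ADP and ATP (chromosome 15, 98812797 to 98831521, minus strand). It was at 23.5, 22.8, 23.1 and 22.6 FPKM in CrT-/y and 21.8, 22.3 and 25.5 FPKM in CrT+/y animals, so that all CrT-/y values lay inside the range of CrT+/y. Its log2 fold change was -0.011 (SE 0.065, adjusted p = 0.938, limma), with a 95% interval of -10.3% to 9.79%. The sign was positive under quantile normalization, upper quartile scaling and median centring (0.044, 0.051 and 0.027) and without CrT+/y replicate 3 (0.059). Exons of the antisense gene B130046B21Rik lie opposite 43.7% of its exon length, with the same limit on strand as for Ak3. Prkag2, the gene of gamma2, was at 25.8 ± 1.19 and 26.8 ± 1.88 FPKM, with an adjusted p of 0.647 (limma). Prkag3, whose product is known from skeletal muscle, was at most 0.063 FPKM in any animal. Thus Prkag1 made up 47.2 ± 1.2% of gamma transcripts in CrT-/y and 46.5 ± 3.01% in CrT+/y cortex.

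**Figure D2:**
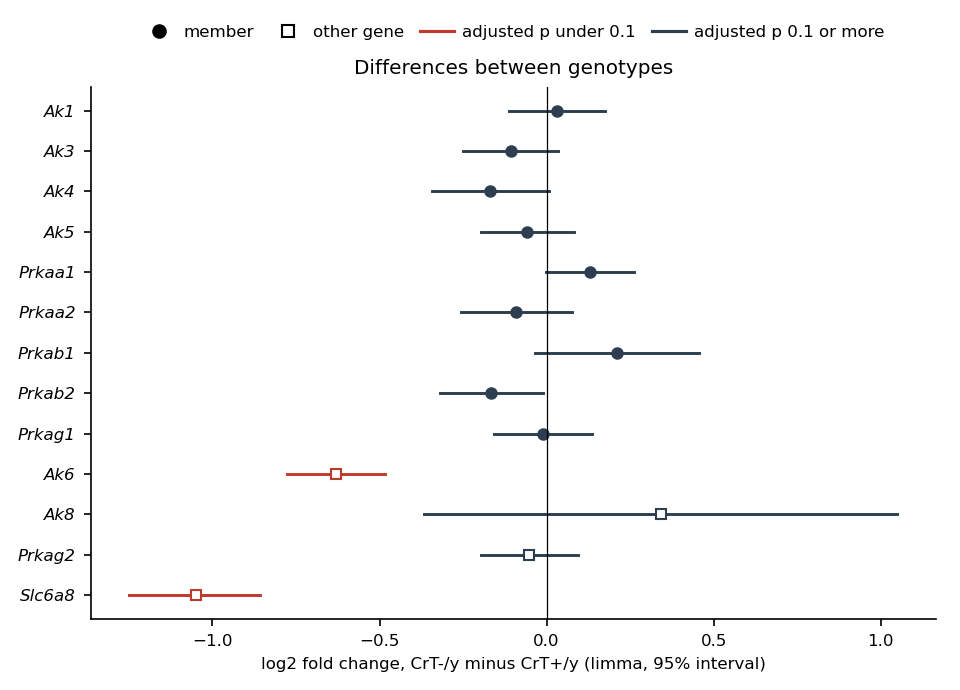
Log2 fold change of each gene (CrT-/y minus CrT+/y, horizontal axis) with its 95% interval from limma, for the 9 genes (filled circles) and for other adenylate kinase, AMPK and Cr transporter genes (open squares). Intervals in red belong to genes with an adjusted p under 0.1, which are Ak6 at -0.63 and Slc6a8 at -1.05.

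Ratios of isoforms within an animal do not depend on a scaling factor per library. The ratio of Prkaa1 to Prkaa2 was 0.814, 0.75, 0.816 and 0.732 in CrT-/y and 0.633, 0.67 and 0.697 in CrT+/y animals, so that each CrT-/y animal exceeded each CrT+/y animal. Means were 0.778 ± 0.044 and 0.667 ± 0.033, 1.17-fold apart (0.22 on the log2 scale). In terms of shares, Prkaa1 made up 42.3% to 44.9% of alpha transcripts in CrT-/y and 38.7% to 41.1% in CrT+/y animals.

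The ratio of Prkab1 to Prkab2 was 0.704, 0.691, 0.607 and 0.659 in CrT-/y and 0.584, 0.447 and 0.509 in CrT+/y animals, again without overlap. Means were 0.665 ± 0.043 and 0.513 ± 0.069, 1.3-fold apart (0.38 on the log2 scale). Prkab1 made up 37.8% to 41.3% of beta transcripts in CrT-/y and 30.9% to 36.9% in CrT+/y animals. In each pair the isoform of lower level, alpha1 and beta1, thus took a larger share in CrT-/y than in CrT+/y cortex, while the sums of alpha and of beta transcripts overlapped between genotypes.

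For each of these ratios the two-sided exact permutation test gave p = 0.0286, the smallest possible with 4 and 3 animals. Adjusted over the 4 ratios compared (with Ak4 to Ak3 and Ak1 to Ak5) this was 0.0572, above 0.05. The ratios were chosen with earlier results of these data known, which the adjustment does not take into account. The transcripts of a pair differ in length, at 4655 bases for Prkaa1 against 7969 for Prkaa2 and 2089 for Prkab1 against 5006 for Prkab2. The log2 deviation of an animal from the mean of each gene over all animals was compared with transcript length. Per doubling of length it rose by 0.033 and 0.063 in CrT+/y replicates 1 and 2. It fell by 0.027 in CrT+/y replicate 3 and by 0.012 to 0.03 in CrT-/y animals. With a correction for length in each animal the log2 differences were 0.21 for the alpha and 0.34 for the beta pair, and the groups still did not overlap. With single animals left out the log2 differences were 0.19 to 0.26 and 0.28 to 0.48, with exact permutation p of 0.0667 to 0.133, and no split of 6 animals can reach 0.05. The share of single genes whose groups did not overlap, 21.6%, is the nearest background computed, and no such share was computed for ratios of other gene pairs.

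**Figure D3:**
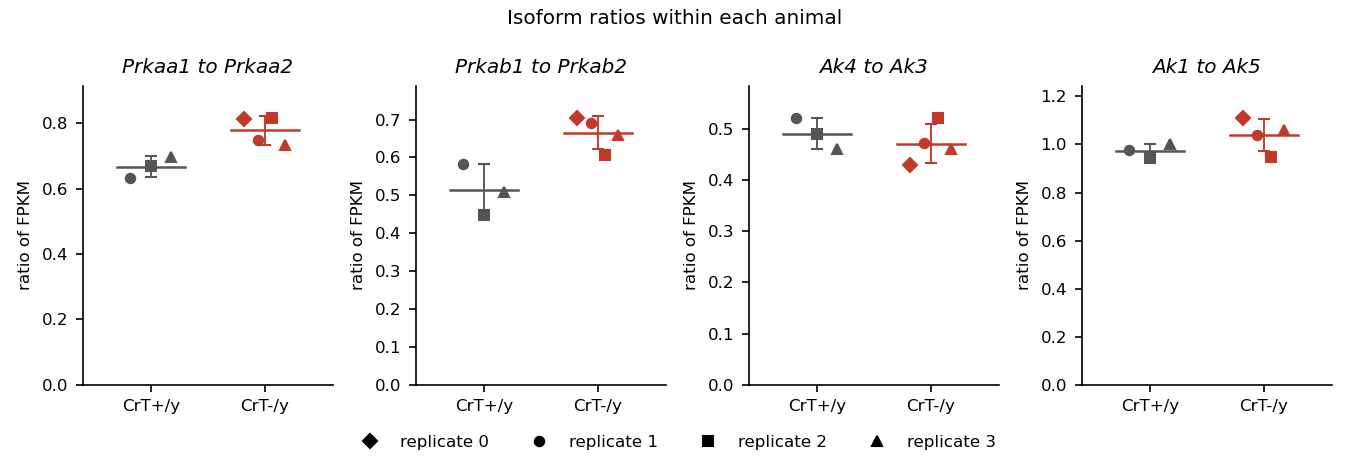
Ratio of FPKM of 2 isoforms within each animal (vertical axes, from 0) for 3 CrT+/y (grey) and 4 CrT-/y (red) animals, with lines at the mean and bars of 1 SD. The ratios of Prkaa1 to Prkaa2 (0.732 to 0.816 against 0.633 to 0.697) and of Prkab1 to Prkab2 (0.607 to 0.704 against 0.447 to 0.584) do not overlap, and those of Ak4 to Ak3 and Ak1 to Ak5 do.

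Among further genes of both families, Ak6 fell in CrT-/y cortex. Ak6 encodes a nuclear protein of the adenylate kinase fold also known for a role in ribosome formation (chromosome 13, 100650979 to 100666359, plus strand). It was at 7.33, 7.23, 7.43 and 6.89 FPKM in CrT-/y and 10.6, 11.6 and 11.6 FPKM in CrT+/y animals, a wide gap compared with the spread in each group. Means were 7.22 ± 0.239 and 11.2 ± 0.569 FPKM, with a log2 fold change of -0.63 (SE 0.065, adjusted p = 0.00597, limma). It was called in all 21 settings, with log2 fold changes of -0.67 to -0.57 and adjusted p of 0.00363 to 0.0617 (limma).

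Over all its annotated transcripts, Ak6 shares 56.5% of its exon length (1564 of 2769 bases) with Taf9. Taf9 lies on the same strand and encodes a subunit of general transcription complexes. The Ak6 transcript used for its length (1298 bases) shares 0 of its 1199 stretches of 100 bases with transcripts of other genes. RefSeq gives the same upstream window to Ak6 and to 1 of the starts of Taf9 (chr13:100651093-100651342). This window lies inside the position of Ak6 given above, which is from GENCODE and starts earlier. How fragments from the shared exons were divided cannot be told from FPKM, so the level of Ak6 is uncertain. Taf9, named after its values were seen, was at 58.7 ± 3.69 in CrT-/y and 50.5 ± 2.57 FPKM in CrT+/y animals, higher with a log2 fold change of 0.21 and an adjusted p of 0.0908 (limma). When single animals were left out this call on Taf9 remained only without CrT+/y replicate 3.

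Ak8, known from ciliated cells, was at 2.41, 1.58, 1.25 and 0.804 FPKM in CrT-/y and 1.07, 0.874 and 1.37 FPKM in CrT+/y animals (adjusted p = 0.532, limma), and Ak7 was under the filter at 0.199 to 0.654 FPKM. Ak9 was not analysed here. Summed over Ak1, Ak3, Ak4, Ak5, Ak6, Ak7 and Ak8, transcripts were 170.2 ± 1.97 FPKM in CrT-/y and 178.2 ± 7.14 FPKM in CrT+/y cortex, with overlapping ranges of 167.6 to 172.3 and 170.3 to 184.2 FPKM. Ak1 and Ak5 together carried most of this sum, Ak1 with 37.9% and 35.5% and Ak5 with 36.6% and 36.4% in CrT-/y and CrT+/y cortex.

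Genes around the adenylate kinases and AMPK were taken from 6 lists of 81 genes, of which 72 were tested. In these, 4 were lower and 1 was higher in CrT-/y cortex, 6.94% in all against 10.1% of all tested genes. Ak6 was called lower also when any 1 animal was left out. Among the others no call remained without CrT-/y replicate 1, 2 or 3 or without CrT+/y replicate 1, when 1 gene of the lists was called lower and 0 higher. Leaving out CrT+/y replicate 3 instead gave 15 lower and 8 higher. Quantile normalization, upper quartile scaling and median centring each left 1 call of a lower gene.

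Of 16 tested kinases and regulators upstream of AMPK, 0 were higher and 1 lower, against 2.9% and 7.25% of all tested genes. Below 0 were 12 of 16, 75.0% against 58.2% of all tested genes. The median log2 fold change was -0.064, against -0.034 for all genes. The gene that fell was Cab39 (MO25 alpha), the scaffold of the LKB1 complex, at 70.9, 61.7, 64.4 and 64.5 FPKM in CrT-/y and 86.8, 75.7 and 72.6 FPKM in CrT+/y animals (limma log2 fold change -0.26, adjusted p = 0.0843). Stk11, the gene of the upstream kinase LKB1 itself, was named after its values were seen. It was at 27.6, 27.9, 25.5 and 26.6 FPKM in CrT-/y and 35.2, 29.5 and 30.2 FPKM in CrT+/y animals. The groups did not overlap, as for 15% of all tested genes in the same direction. Stk11 missed the threshold (limma log2 fold change -0.23, adjusted p = 0.101). Of 11 tested kinases of the AMPK-related group that LKB1 activates, 0 passed the limma test in either direction. Their median was -0.092, against -0.034 for all genes. An unadjusted p under 0.05 was found for 3 of the 11, against 25% of all tested genes. Mark4 had the smallest p of these (25.1 ± 1.2 against 28.0 ± 1.49 FPKM, adjusted p = 0.156, limma), and its p without adjustment was 0.0283.

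Of 18 tested genes of AMPK substrates, 1 was higher and 0 lower, against 2.9% and 7.25% of all tested genes. The median log2 fold change was -0.089, against -0.034 for all genes. Srebf1, which encodes a transcription factor of lipid synthesis, rose with values of 16.5, 15.1, 15.3 and 16.3 FPKM in CrT-/y against 11.8, 14.1 and 13.5 FPKM in CrT+/y animals (limma log2 fold change 0.27, adjusted p = 0.0784). Phosphorylation by AMPK was not measured, and these values are transcript levels.

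Among 20 tested genes of adenine nucleotide metabolism and its carriers, 0 were higher and 1 lower, against 2.9% and 7.25% of all tested genes. Below 0 were 6 of 20, 30.0% against 58.2% of all tested genes, with a median of 0.087. The gene called was Adk, adenosine kinase, which turns adenosine into AMP. It was at 45.4, 45.2, 43.2 and 43.6 FPKM in CrT-/y and 50.8, 49.2 and 49.7 FPKM in CrT+/y animals (limma log2 fold change -0.17, adjusted p = 0.0783). All 4 tested genes of creatine kinases and Cr synthesis were below 0, against 58.2% of all tested genes. The median of the 4 was -0.15, and 1 of them was called, against 10.1% of all tested genes. That gene was Ckmt1, the mitochondrial creatine kinase of brain, at 97.2, 98.7, 94.9 and 106.0 FPKM in CrT-/y and 115.9, 108.9 and 120.6 FPKM in CrT+/y animals (limma log2 fold change -0.21, adjusted p = 0.077).

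Variation among animals of 1 genotype was small for most of the 9 genes. The coefficient of variation was 1.66% to 8.94% in CrT-/y and 2.36% to 17.8% in CrT+/y animals, and it was larger in CrT+/y for 6 of the 9, against 71.1% of all tested genes. As the animals of each genotype were few, these spreads are imprecise.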

How the data were processed

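Cortical RNA of 4 CrT-/y and 3 CrT+/y males was sequenced in paired-end mode, with 1 library per animal, and groups were taken from the sample labels. The authors aligned reads to mm10 (Bowtie is named in the submitters' processing notes), allowed at most 2 mismatches, and computed FPKM with Cuffnorm. In the deposited FPKM the authors had already divided by length and library size. They are not counts, a count model could not be applied, and they give no counting error per animal. Relative depth estimated from 2609 low genes was 0.862 to 1.24. The table named no other samples. Before log2, 0.1 was added to FPKM, which understates changes of low genes. Genes averaging 1 FPKM or more entered limma 3.58.1 (R 4.3.3) with genotype as the only term, a variance trend and Benjamini-Hochberg adjustment, and were called at an adjusted p under 0.1, the threshold of the study. Single values were tested with two-sided exact permutation over 35 splits (Python 3.11.15, scipy 1.17.1). Intervals are 95% intervals of the limma fit.

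The 9 genes, the gene lists, the ratios and the tests were chosen with earlier results of these data known. Text names all 9 genes, Slc6a8, other family members, and from each further list the genes called or, with none called, the gene of smallest p. Marker lists are given as lists. A few genes of the lists are not reported here, and counts, medians and sums leave them out. Lengths, positions and exon overlaps are from GENCODE M21 (GRCm38), and upstream sequences from RefSeq (GRCm38.p6). Alternatives were pseudocounts of 1 and 0.01, no filter or minimum means of 0.1 or 5 FPKM, and 3 other scalings. Further ones were a correction for transcript length, weights per array, moderation without a trend, the replicate number as a block, and each animal left out. The block kept only numbers found in both genotypes, which left out CrT-/y replicate 0.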

Additional observations from a re-analysis of the deposited data

How the results depend on the processing

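The counts of calls depended on the setting more than the values of the genes did. Among the 9 genes, 1 was called higher under upper quartile scaling (Prkaa1) and 1 lower without CrT+/y replicate 3 (Prkab2), and leaving out single animals otherwise gave 0 in either direction. Over the 9 genes, 169 alternative values kept sign and side of the threshold, 9 turned sign and 2 passed the threshold. Signs turned for Ak1 without CrT+/y replicate 2 (-0.035 to 0.084 over single animals left out), and for Ak5 with quantile normalization (0.015), upper quartile scaling (0.0048) and the replicate block with length correction (0.015). They turned for Prkag1 with quantile normalization (0.044), upper quartile scaling (0.051), median centring (0.027), array weights (0.021) and without CrT+/y replicate 3 (-0.054 to 0.059 over single animals left out). Outside the 9, Prkag2 turned with quantile normalization (0.0097), upper quartile scaling (0.0098), the replicate block with length correction (0.012) and without CrT+/y replicate 2 (-0.088 to 0.0042 over single animals). The cause was not tested.

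Genes called among all tested were 1318 in the main limma fit used here, which is not the count given in the paper. They were 730 with no filter, 575 with the replicate block and 362 with the block and length correction. The block fits left out CrT-/y replicate 0, and 614 genes were called without that animal and with no block. With 1 animal left out they were 64 (without CrT-/y replicate 1) to 3733 (without CrT+/y replicate 3). Higher genes were 28.6% of calls in the main fit, 48.8% with quantile normalization, 61.5% with upper quartile scaling, 48.2% with median centring and 46.6% with length correction. Listed pathway genes called lower were 4 in the main fit, 1 with each of the 3 scalings, 3 with length correction, and 1 to 15 with 1 animal left out, with 0 to 8 called higher. With 1 animal left out the log2 ratio of Ak1 to Ak5 differed by 0.058 to 0.13, and its groups no longer overlapped without CrT-/y replicate 2. Deviations of same-numbered animals had r of -0.078, 0.046 and -0.051, within the range of -0.20 to 0.25 for animals of unlike number. With so few animals these r cannot decide whether the numbers pair them, and the labels do not say. With the replicate block, which left out CrT-/y replicate 0, the log2 differences of the alpha and beta ratios were 0.20 and 0.35. They were the same when that animal was left out with no block. The FPKM table holds no depth per animal, and at the standard errors seen a log2 change under 0.19 would not have been called for any of the 9 genes.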
